A study of Homo sapiens with 2 samples.

Results

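The Wnt and beta-catenin pathway was followed through 10 of its genes in PLC, a cell line of human liver cancer, with and without overexpressed PRSS35. They were taken from a fixed list by gene name, and 10 of 10 were found among the 26228 names present in both libraries, each as 1 locus of its own. Control cells carried the empty vector (EV) and are labelled wild type, and the other culture stably expressed human PRSS35, a secreted protein of the trypsin family of serine proteases, from a lentiviral vector. Both lines were made by infection and puromycin selection, so each is a selected population. Cells were kept in DMEM with 25 mM glucose, 4 mM glutamine, 1 mM pyruvate and 10% fetal bovine serum, and whether serum was withdrawn before RNA extraction is not given in the sources used here. Each condition has 1 library, so differences could not be checked against replicates and were not tested. In RNA from a whole culture, fewer cells that express a gene and less RNA of it per cell cannot be told apart.

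In the canonical Wnt pathway, a secreted Wnt protein binds a Frizzled receptor and an LRP co-receptor, which stops a cytoplasmic destruction complex from marking beta-catenin for degradation. Beta-catenin then accumulates, enters the nucleus and, with TCF/LEF factors, turns on target genes, several of which encode inhibitors of the pathway itself. In the liver, this signal sets the gene programme of hepatocytes around the central vein, and it is often activated in liver cancer by changes in the proteins of the complex. Beta-catenin is regulated mainly as a protein, which the RNA values here do not measure.

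All levels are FPKM, which scales the fragments of a transcript by its length and by the mapped fragments of its library, and Cufflinks gives each a lower and an upper bound. These bounds cover error within a library only. Fragment numbers given for single genes below are read from the width of the bounds, and measure precision rather than counted reads. From the width of the bounds at weakly expressed single-exon genes, each library was estimated to hold 31.5 M (mega) fragments, and at 631 loci a single fragment was worth the same FPKM in both, with a median ratio of 1.00. For PRSS35 itself the EV library had 0.643 FPKM (bounds 0.445 to 0.841) and the PRSS35 library 1836 (bounds 1759 to 1912). Of 9 hepatocyte markers, SERPINA1 was the most abundant in either library, whereas ALB had only 4.05 FPKM in EV and 5.21 in PRSS35, and FGB was below 1 in both. Markers of other cell types were mixed. PTPRC of leukocytes and COL3A1 of fibroblasts were listed at 0 in both libraries. The COL3A1 locus was assembled from the reads and joined with another gene, where a 0 need not be an absence of reads. The 3 endothelial markers did not exceed 0.0297. Of the myeloid markers, LYZ had 94.0 in EV and 103.7 in PRSS35, and CD68 297.3 and 277.9, at a locus joined with MPDU1. Summed over the 9 hepatocyte markers, FPKM was 3413 in EV and 5175 in PRSS35, mostly through SERPINA1 at 2528 and 4239, while APOA1 was lower in PRSS35, at 576.2 and 493.6 with bounds apart, and AFP and FGB were lower with overlapping bounds. The sums in EV and PRSS35 were 58.4 and 64.5 for 3 cholangiocyte markers, 1.72 and 2.03 for 3 fibroblast markers, and 391.3 and 381.6 for 3 blood markers, mostly from the joined CD68 locus. Their part in the results below was not tested.

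Most of what follows turns on RNF43, listed at 0 in the EV library, and on CTNNB1, whose bounds were apart at a high level. The stretches of 250 bases before their transcription starts are therefore shown, as RefSeq gives them on GRCh38.p14, 5′ to 3′ on the strand of the gene. Capitals mark CTTTG or its reverse complement CAAAG, the core shared by TCF/LEF binding motifs. RNF43 is transcribed from the minus strand and has 2 starts in RefSeq, at chr17:58417535-58417784 and chr17:58402722-58402971, and the deposited tables also list 2 starts for it. CTNNB1 is on the plus strand, with its stretch at chr3:41199255-41199504.
RNF43, first start: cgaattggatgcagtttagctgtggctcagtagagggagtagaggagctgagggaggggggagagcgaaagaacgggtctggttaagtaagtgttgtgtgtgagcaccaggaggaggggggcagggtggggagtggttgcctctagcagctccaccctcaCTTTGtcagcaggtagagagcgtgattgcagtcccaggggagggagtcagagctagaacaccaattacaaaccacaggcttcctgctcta
RNF43, second start: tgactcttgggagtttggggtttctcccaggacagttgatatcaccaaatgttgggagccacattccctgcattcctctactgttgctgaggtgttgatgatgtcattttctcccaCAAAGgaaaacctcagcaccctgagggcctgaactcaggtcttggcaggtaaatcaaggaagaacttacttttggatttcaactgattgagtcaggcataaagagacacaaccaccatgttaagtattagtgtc
CTNNB1: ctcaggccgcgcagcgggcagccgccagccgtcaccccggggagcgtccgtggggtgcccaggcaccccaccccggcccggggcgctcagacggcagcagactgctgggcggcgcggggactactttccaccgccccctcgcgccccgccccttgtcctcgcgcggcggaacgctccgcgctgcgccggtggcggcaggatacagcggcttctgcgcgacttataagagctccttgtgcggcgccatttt
Each RNF43 stretch holds 1 core match, 90 bases before the first start and 134 bases before the second, and that of CTNNB1 holds none. RefSeq promoters were matched for 5 of the 10 genes, 8 stretches in all, and the other 6, of CTNNB1, APC, AXIN1 and GLUL, hold no core match. The core was present in 42.1% of all 35116 promoter stretches of this length. A longer form that contains the core, CTTTGAT or ATCAAAG, was in 0 of the 8 and in 2.26% of all. CG dinucleotides numbered 4 and 0 in the RNF43 stretches and 34 in that of CTNNB1, beside a median of 11 over all promoters. No entry was found for AXIN2, LGR5, ZNRF3, NKD1 and TBX3.

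The levels of these genes spanned a wide range. CTNNB1, GLUL and AXIN1 were the most abundant in that order in both libraries, followed by TBX3 and ZNRF3, and the bounds of each of these neighbours were apart. LGR5, AXIN2, NKD1 and APC were all at or below 1 FPKM. Among these, LGR5 and AXIN2 could not be ordered in either library, and AXIN2 and NKD1 could not be ordered in PRSS35, as their bounds overlapped. In EV cells 87.4% of all names had a lower FPKM than CTNNB1, 58.5% a lower one than LGR5 and 48.8% a lower one than APC.

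**Figure D1:**
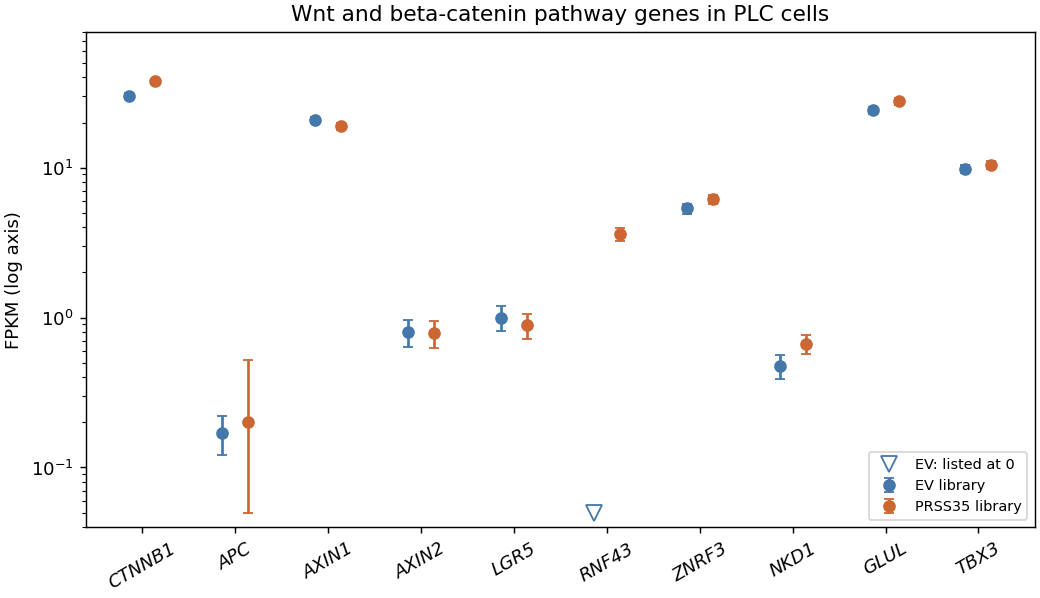
FPKM of the 10 genes in the EV (blue) and PRSS35 (orange) library on a log axis, with bars for the bounds from Cufflinks and 1 library per condition. RNF43 is listed at 0 in EV and drawn as an open triangle at the foot of the axis, where the bar of APC in PRSS35, whose lower bound is 0, is also cut; CTNNB1 is highest in both libraries, at 30.2 and 37.7.

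CTNNB1, on chromosome 3 of hg19 from 41240942 to 41281939, encodes beta-catenin, the transcriptional effector of the pathway and a component of adherens junctions. Its FPKM was 30.2 (bounds 28.9 to 31.6) in EV and 37.7 (bounds 36.1 to 39.2) in PRSS35. The bounds did not overlap, and PRSS35 cells were higher by 24.5%. The ratio of the libraries was 1.25, with an interval of 1.17 to 1.32 when the error of both values is combined. Genes whose FPKM averaged at least 1 over the pair of libraries are called expressed below. Over expressed genes above 0 in both libraries the median ratio was 1.05, so the interval of CTNNB1 lies above the median gene. Differences of this kind were common in this pair of libraries. Among the 11118 expressed genes, bounds were apart with a higher value in PRSS35 for 25.1% and with a lower value for 15.5%. Read against these shares, non-overlapping bounds are no feature particular to CTNNB1.

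The destruction complex was represented by APC, AXIN1 and AXIN2, the scaffold proteins that hold beta-catenin for phosphorylation. AXIN1, on chromosome 16 from 337440 to 402714, had 20.8 FPKM (bounds 19.7 to 21.9) in EV and 19.0 (bounds 17.9 to 20.0) in PRSS35. These bounds overlapped, while the combined interval of its ratio of 0.912, from 0.845 to 0.984, stayed below 1. AXIN2, on chromosome 17 from 63524683 to 63557740, is the inducible paralog, which beta-catenin itself turns on and which is widely used as a readout of the pathway. Its FPKM was 0.796 (bounds 0.635 to 0.956) in EV and 0.786 (bounds 0.627 to 0.946) in PRSS35. The ratio of 0.988, with an interval of 0.742 to 1.32, is wide, and a difference within it was not detectable at this depth. The AXIN2 bounds in EV correspond to about 98.5 fragments. AXIN1 was thus the main axin transcript of these cells, with an FPKM 26.1 times that of AXIN2 in EV and 24.1 times in PRSS35.

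APC, on chromosome 5 from 112043202 to 112181936, is the largest scaffold of the complex and a tumour suppressor. Its transcript was at the limit of what these libraries resolve, with 0.170 FPKM (bounds 0.121 to 0.219) in EV and 0.202 (bounds 0 to 0.518) in PRSS35. The EV bounds correspond to about 48.5 fragments, and those in PRSS35 are as wide as for about 1.64 fragments although the FPKM was similar. The interval of the ratio ran from 0.242 to 5.81, so no statement on a change of APC can be made. The locus was assembled from the reads in both libraries. Its paralog APC2 had 140.2 times the FPKM of APC in EV and 26.5 times in PRSS35. The value for PRSS35 is imprecise, since the lower bound of APC is 0 there and the APC2 span holds a further locus, described below. No shift between the paralogs can be read from these values.

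RNF43, ZNRF3, LGR5 and NKD1 act on the receptors or directly below them and dampen or tune the signal. The first pair are membrane E3 ubiquitin ligases that remove Frizzled receptors from the cell surface, LGR5 is a receptor for R-spondins, which counteract these ligases, and NKD1 binds Dishevelled and inhibits it. All of them are also known as targets of beta-catenin in some tissues.

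RNF43 is on chromosome 17 from 56429861 to 56494943. It is listed at 0 in EV, with both bounds at 0, and at 3.61 FPKM (bounds 3.25 to 3.97) in PRSS35. The PRSS35 bounds are as wide as for about 399.6 fragments. On the log2(FPKM + 1) scale the difference is 2.204, and RNF43 is the 1 gene of the 10 past 2-fold. No fold is given, since an exact 0 in such a table need not be an absence of reads. With a pseudocount of 5 FPKM the difference was 0.78, below 2-fold, and with 0.1 FPKM it was 5.21. In this pair of libraries 2.73% of expressed genes were higher in PRSS35 by 2-fold and 2.48% were lower. RNF43 counts as expressed only through the PRSS35 library.

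The RNF43 locus was assembled from the reads in both libraries. Within its span the EV library has an unnamed locus of 647 bases, from 56433152 to 56433798, with 1.802 FPKM (bounds 1.02 to 2.59) and about 21.0 fragments, and the PRSS35 library lists no such locus. Of these bases, 0 are in an annotated exon of RNF43, and they lie in the last intron of 5 protein-coding transcripts, between 56432348 and 56434828. The antisense gene BZRAP1-AS1 overlaps the end of RNF43 and is listed at 0 in both libraries. The strandedness of the libraries is not given in the sources used here, so reads of a gene and its antisense partner cannot be told apart. Of the 102 expressed genes listed at 0 in EV, 62 are in loci assembled in that library. Of all 30971 EV loci, expressed or not, 13875 were assembled. The share among all expressed genes is not given, so the count of 62 does not show that zeros gather in assembled loci. The part of assembly in the value of RNF43 was not tested.

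ZNRF3, the paralog of RNF43 on chromosome 22 from 29279755 to 29453476, kept its annotated structure in both libraries. Its FPKM was 5.34 (bounds 4.94 to 5.735) in EV and 6.17 (bounds 5.735 to 6.61) in PRSS35. The bounds overlapped by a very small margin, and the ratio was 1.16 with an interval of 1.04 to 1.28 that includes the median gene. An antisense gene inside its span, ZNRF3-AS1, is listed at 0 in both libraries. In PRSS35 cells, where both ligases have a value, RNF43 had 0.585 times the FPKM of ZNRF3.

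LGR5, on chromosome 12 from 71833550 to 71980088 in EV, had 1.00 FPKM (bounds 0.814 to 1.19) in EV and 0.889 (bounds 0.716 to 1.06) in PRSS35. The ratio of 0.889 had an interval of 0.679 to 1.16 and the bounds overlapped widely. NKD1, on chromosome 16 from 50582241 to 50674771, was the only gene below 1 FPKM whose bounds were apart. It had 0.475 FPKM (bounds 0.390 to 0.559) in EV and 0.669 (bounds 0.567 to 0.771) in PRSS35, a ratio of 1.41 with an interval of 1.12 to 1.78. These values correspond to about 125.3 and 173.3 fragments, and the locus kept its annotation in both libraries. Such a difference is less common among weakly expressed genes. Of 2879 names with a mean FPKM of at least 0.1 and under 1 that were above 0 in both libraries, 6.88% had bounds apart with a higher value in PRSS35 and 3.61% with a lower value. On the log2(FPKM + 1) scale the difference of NKD1 is 0.18, far from 2-fold.

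GLUL and TBX3 are targets of beta-catenin in hepatocytes. GLUL, on chromosome 1 from 182347228 to 182361341, encodes glutamine synthetase, which in normal liver is confined to the hepatocytes next to the central vein and is a common marker of active beta-catenin in liver tumours. It had 24.1 FPKM (bounds 22.9 to 25.3) in EV and 27.7 (bounds 26.4 to 29.0) in PRSS35. The bounds were apart and the ratio was 1.15, with an interval of 1.07 to 1.23. TBX3, on chromosome 12 from 115108059 to 115121969, encodes a T-box transcriptional repressor. Its FPKM was 9.76 (bounds 9.15 to 10.4) in EV and 10.5 (bounds 9.84 to 11.1) in PRSS35. For TBX3 the bounds overlapped and the interval of the ratio of 1.07, from 0.984 to 1.17, included both no change and the median gene. GLUL and CTNNB1 were thus the abundant genes whose bounds separated, both in the direction in which most genes with separated bounds lay.

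**Figure D2:**
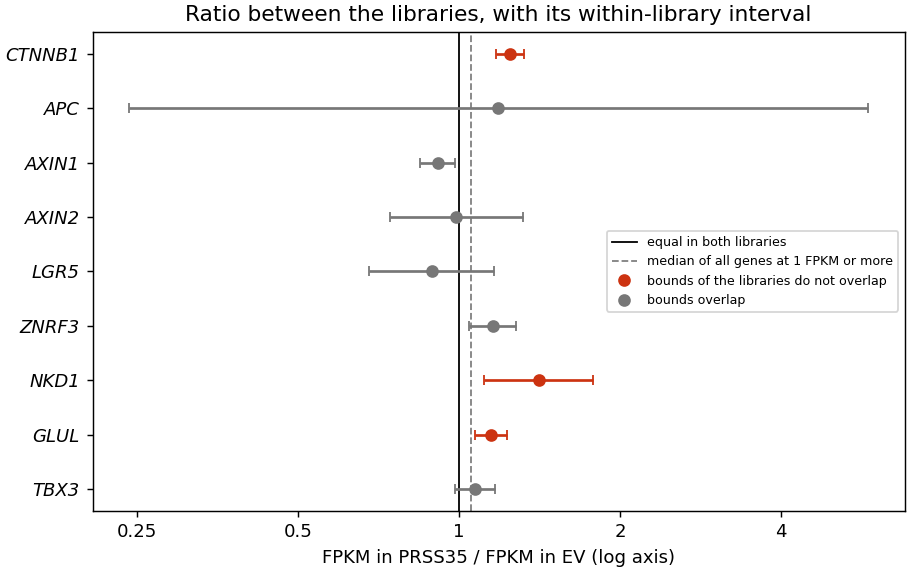
Ratio of the FPKM in PRSS35 to that in EV on a log axis for the 9 genes above 0 in both libraries, with the interval from the combined bounds, which covers error within the libraries only. Red points are genes whose bounds did not overlap (CTNNB1, NKD1 and GLUL), the solid line is a ratio of 1 and the dashed line the median gene at 1.05.

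Across the list, bounds did not overlap for 4 of the 10 genes, CTNNB1, RNF43, NKD1 and GLUL, with higher values in PRSS35. The count includes RNF43 only through its listing at 0 in EV, and is 3 of the 9 genes above 0 in both libraries without it. Over all genes, bounds were apart with a higher value in PRSS35 for 25.1% of expressed genes and for 6.88% of the weaker class, and with a lower value for 15.5% and 3.61%, so the count says nothing particular about these genes. The median log2 change over the 10 genes, 4 of which are below the limit for expressed genes, was 0.13, beside 0.00 for all 26228 names, many of them listed at 0 in both libraries. AXIN1, AXIN2 and LGR5 had lower values in PRSS35, at log2 changes of -0.13, -0.01 and -0.08, and turned to higher values when FPKM was divided by its sum over all loci, a scaling that shifts the median of expressed genes from 0.06 to 0.69. The known targets AXIN2, LGR5, NKD1, RNF43, ZNRF3, GLUL and TBX3 did not all have higher values in PRSS35. NKD1 and GLUL had higher values with bounds apart, and ZNRF3 and TBX3 had higher values with overlapping bounds. AXIN2 and LGR5 had nearly equal or lower values with wide overlap. Their ratio intervals include both no change and the median gene, so they show no opposite direction. RNF43 is listed at 0 in EV, which gives no level to compare with.

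The ratio between the libraries differed with the GC content of the transcripts, with class medians that rose and then fell from low to high GC. Over 9494 expressed names above 0 in both libraries, Spearman's rho of change with GC content was weak, at -0.14. Among these expressed genes, the median ratio was 1.02 below 40% GC, 1.08 at 40 to 45% and 1.13 at 45 to 50%. It was 1.12 at 50 to 55%, 1.03 at 55 to 60% and 0.935 at 60% and more. AXIN1, at 63.5% GC, is the 1 gene of the list in the class of 60% GC and more. Its ratio of 0.912 lies near the median of that class. CTNNB1, at 42.6% GC, and GLUL, at 44.7%, belong to a class with a median ratio of 1.08. The interval of CTNNB1, from 1.17, lies above this median, and that of GLUL, from 1.07, includes it. LGR5, at 43.8% GC, is in the same class, and its interval of 0.679 to 1.16 around a ratio of 0.889 includes the median too. NKD1, TBX3, AXIN2 and ZNRF3 are in the class of 50 to 55% GC with a median of 1.12. The interval of NKD1, from 1.115, includes this median. LGR5, AXIN2 and NKD1 average below 1 FPKM, so they are weaker than the genes behind these class medians. Whether GC content sets these ratios was not tested.

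**Figure D3:**
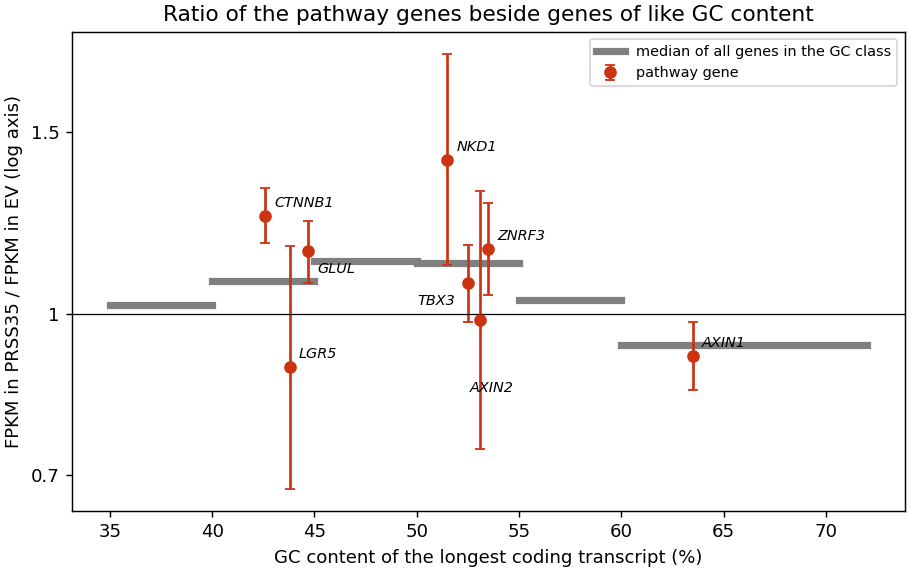
Ratio of PRSS35 to EV (log axis) against the GC content of the longest coding transcript for 8 genes of the list, with intervals that cover error within the libraries; APC, with an interval from 0.242 to 5.81, and RNF43, listed at 0 in EV, are left out. Grey bars are the median ratios, in each GC class, of expressed genes above 0 in both libraries. The outer classes are drawn only to the edge of the plot. AXIN1 lies near the lowest class median, at 0.935, and CTNNB1 above that of its class.

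The rest of the pathway was read from lists by role, 123 genes in all, of which 68 were expressed. Of these 68 genes, 1 was higher in PRSS35 by 2-fold and 1 was lower, and bounds were apart with a higher value for 25 and with a lower value for 10. Their median log2 change was 0.11. Over the 11118 expressed genes, 2.73% were higher in PRSS35 by 2-fold and 2.48% were lower. Bounds were apart with a higher value for 25.1% of them and with a lower value for 15.5%. These shares are also the background for the counts in the lists below, which were not tested against them. Most of the pathway thus differed by less than 2-fold, as did most of the transcriptome.

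Wnt ligands were scarce. Of 19 ligands, 4 were expressed and 4 were listed at 0 in both libraries. WNT3 had the highest mean of both libraries. In EV alone, WNT10B had 3.65 FPKM (bounds 3.13 to 4.16), and its bounds overlapped those of WNT3, so they could not be ordered there. WNT3 had 2.94 FPKM (bounds 2.62 to 3.25) in EV and 6.59 (bounds 5.68 to 7.49) in PRSS35, a log2 change of 0.95 that is past 1.5-fold and short of 2-fold. Although its FPKM was higher in PRSS35, it was less precise there, with bounds as wide as for about 212.2 fragments against 340.3 in EV. The WNT3 locus was assembled in both libraries and starts at different positions, 44839725 in EV and 44839872 in PRSS35. The other ligands at this level, WNT2B, WNT7B and WNT10B, had log2 changes between -0.14 and 0.14 with overlapping bounds. PORCN, which attaches the lipid that Wnt proteins need for secretion, had 7.60 FPKM in EV and 7.13 in PRSS35. None of the 4 R-spondins, the ligands of LGR5, exceeded 0.0565 FPKM in either library.

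Among 17 receptors, 9 were expressed. LRP5, a co-receptor, was the most abundant at 56.4 FPKM in EV and 61.0 in PRSS35, with overlapping bounds, and had 113.7 times the FPKM of LRP6 in EV. No receptor at this level differed by 1.5-fold. Bounds were apart for FZD2, which was higher in PRSS35, and for FZD5 and FZD9, which were lower. LGR4, a homologue of LGR5, had 5.96 FPKM in EV and 6.56 in PRSS35 and so was the main LGR transcript of these cells.

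Of 15 secreted antagonists and their receptors, 6 were expressed, and DKK1, DKK3 and KREMEN1 had bounds apart with higher values in PRSS35. DKK1 blocks LRP co-receptors and is a target of beta-catenin. It had 24.5 FPKM in EV and 32.0 in PRSS35, and the interval of its ratio of 1.31 was 1.21 to 1.41. DKK3, a related secreted protein, had 4.24 FPKM (bounds 3.73 to 4.74) in EV and 7.46 (bounds 6.75 to 8.16) in PRSS35, a log2 change of 0.69. Its locus kept the annotated structure in EV and was assembled in PRSS35.

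In the cytoplasmic relay, 18 of 20 genes were expressed, with bounds apart and higher values for 4 and lower values for 5. GSK3A, a kinase that phosphorylates beta-catenin for degradation, was the most abundant, at 149.9 FPKM in EV and 133.2 in PRSS35, with bounds apart. APC2 was the 1 relay gene past 2-fold. It had 23.9 FPKM (bounds 22.7 to 25.1) in EV and 5.36 (bounds 5.03 to 5.68) in PRSS35, a log2 change of -1.97. The bounds are as wide as for about 1533 fragments in EV and 1096 in PRSS35, which measures precision and is no count of reads. Inside its span on chromosome 19, from 1450148 to 1473243, the PRSS35 library has an unnamed locus of 2118 bases with 18.5 FPKM that is not listed for EV. How far fragments of APC2 were counted there was not tested.

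Of 16 nuclear factors, 15 were expressed and none differed by 1.5-fold. The TCF/LEF factors TCF7, TCF7L1, TCF7L2 and LEF1 lay between 3.70 and 8.04 FPKM in either library, and of these TCF7L2 had bounds apart, with 3.89 FPKM in EV and 4.93 in PRSS35. PYGO2, a co-activator of beta-catenin, was the most abundant nuclear factor at 95.3 FPKM in EV and 107.2 in PRSS35, at a locus joined with SHC1 in both libraries.

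Most expressed target genes outside the list had higher values in PRSS35. So did most expressed genes above 0 in both libraries, whose median ratio was 1.05, so this direction is not particular to the targets. Of 8 other pericentral liver genes, 2 were expressed, and CYP2E1, CYP1A2, RHBG and LECT2 did not exceed 0.0398 in either library. OAT, ornithine aminotransferase, had 50.8 FPKM in EV and 57.2 in PRSS35, with bounds apart. SLC13A3, a dicarboxylate transporter, had 5.09 (bounds 4.61 to 5.58) in EV and 16.0 (bounds 14.3 to 17.6) in PRSS35, a log2 change of 1.48, but its locus is joined with TP53RK in both libraries and the value is that of both genes. The bounds of this locus correspond to about 439.4 fragments in EV and 382.3 in PRSS35. Of 6 periportal genes, which beta-catenin holds down in normal liver, PCK1 and CPS1 were expressed and were higher in PRSS35 with bounds apart, at log2 changes of 0.36 and 0.29. Among 12 general targets, 8 were expressed, 6 of them with higher values, and their median log2 change was 0.24. Bounds were apart with higher values for 4, MYC, SP5, ID2 and BAMBI, and with a lower value for 1, SOX4. Among all expressed genes these shares were 25.1% and 15.5%. BAMBI, the most abundant, had 103.9 FPKM in EV and 133.9 in PRSS35, and CCND1 had 45.2 and 45.8.

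Beta-catenin also binds cadherins at the cell surface. Of 5 junction partners, 4 were expressed, and CTNNA1, CTNND1 and CDH1 were higher in PRSS35 with bounds apart, whereas JUP (gamma-catenin), the most abundant, was lower, at 271.9 FPKM in EV and 250.3 in PRSS35. The CTNND1 value is that of a locus joined with TMX2. CTNNA1 and CTNND1 lay in the same direction as CTNNB1, at log2 changes of 0.19 and 0.22 beside 0.31.

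**Figure D4:**
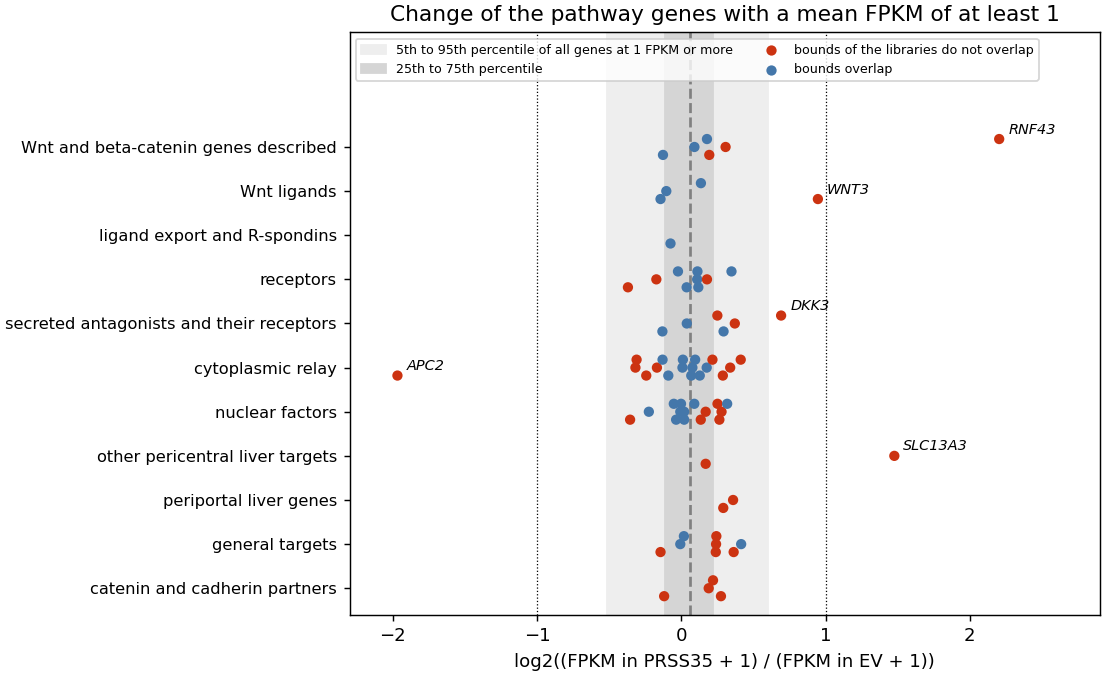
Log2 change on the scale log2((FPKM in PRSS35 + 1) / (FPKM in EV + 1)) of each expressed gene, by role, 1 library per condition; red points have bounds that do not overlap, shading gives the central spread (light and dark) of all expressed genes, the dashed line their median at 0.06 and dotted lines 2-fold. Points are spread vertically for legibility, and the named genes beyond 1.5-fold are RNF43 (2.204), SLC13A3 (1.48), WNT3 (0.95), DKK3 (0.69) and APC2 (-1.97).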

How the data were processed

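RNA of PLC cells, 1 library per condition, was sequenced on a HiSeq2500. Per the study's methods and the submitters' processing notes, reads were aligned to hg19 with TopHat2 2.1.0 and transcripts were assembled and quantified with Cufflinks 2.2.1 (the notes name Cuffdiff), and assembled locus names differ between the libraries. The annotation release and options are not given in the sources used here. The deposited values are FPKM, scaled by the authors' Cufflinks run, with their lower and upper bounds. No read counts were used.

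Comma-joined names were split, each name received the value of its locus, rows of 1 name were summed, and loci on alternate haplotypes were left out. Genes averaging at least 1 FPKM over both libraries (expressed) were compared after adding 1 FPKM, on a log2 scale, and called at 2-fold, a scale that understates changes of weakly expressed genes. Ratios without pseudocount were given an interval by combining the distances to the upper bounds, taken as 2 standard errors, on a log scale. The square of 2 times FPKM over that distance gives the fragments implied. For depth and the worth of a single fragment, only loci below 200 fragments and within 0.01 of a whole number were kept. This rule selected 1370 loci in EV and 1428 in PRSS35. The slope of fragments per FPKM over length, at 105 and 126 single-exon genes, gave the depth. Above 200 fragments, bounds are wider than counting error and the fragments are equivalents of precision. They are also only equivalents for APC, AXIN2, LGR5 and NKD1, whose implied fragments are below 200 but not whole numbers.

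The genes and lists were chosen with earlier results of these data known. Named were all 10 genes, PRSS35, the most abundant gene of each list and each list gene past 1.5-fold. Other genes were named after their values were seen. Positions are 1-based on hg19, with exons and GC content from GENCODE v44lift37 (GRCh37, the same assembly). Its longest coding transcript, found for 86.5% of the genes compared, can differ from the authors' models, as for NKD1. Alternatives were other pseudocounts, scalings, filters and treatments of joined loci. Calling and intervals were run on simulated counts, with the same fragments per FPKM for every gene and bounds made from the same counting error. That checks the calculation only, and does not cover the wider bounds of these data or differences between cultures. Scripts ran in Python 3.11.15 with pandas 2.3.3, numpy 2.4.6, matplotlib 3.10.9 and scipy 1.17.1.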

Additional observations from a re-analysis of the deposited data

How the results depend on the processing

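The number of the 10 genes past 2-fold was 1 (RNF43), and became 0 with a pseudocount of 5 FPKM or with genes of a mean FPKM of at least 5, and 2 when every FPKM was divided by the library's sum, where CTNNB1 reached a log2 change of 1.00. With that sum, the 10 genes had a median log2 change of 0.65 in place of 0.13, that of all expressed genes was 0.69 in place of 0.06, and bounds were apart for 8 genes in place of 4. With genes of a mean FPKM of at least 5, bounds were apart for 2 of the 5 that qualify. The share of all genes with bounds apart is not given for these 2 settings. The counts of 8 and 2 therefore say nothing particular about these genes. Centring on genes of like GC content, an alternative chosen after seeing the data, gave a median of 0.024 for the 10 genes, and TBX3 turned from 0.09 to -0.05. Centring on the median of all genes turned APC from 0.04 to -0.02. Of 90 single values of the genes under the alternatives, 70 moved by less than 0.1 (log2). These 70 include 3 settings that changed no value: the highest row per name, joined loci left out and alternate haplotypes kept. Each of the 10 genes is a single unjoined locus, so the highest-row and joined-locus settings could not move them. Over all genes compared, 579 were past 2-fold, and 354 with a pseudocount of 5 FPKM, 1576 with FPKM divided by its sum, 367 without joined loci, 371 at a mean FPKM of at least 5 and 1056 past 1.5-fold. With FPKM divided by its sum, 88.1% of the calls were higher in PRSS35, against 52.3%. No paired analysis was possible because there is 1 library of EV cells and 1 of PRSS35 cells. Condition, culture and library cannot be told apart, and LGR5, AXIN2, NKD1 and APC are limited by depth.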

Other observations

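Of the 133 pathway genes examined, 2 had 1 FPKM or more in a single library and 0 in the other, RNF43 and FZD4, a Frizzled receptor singled out after its values were seen. In PRSS35 cells FZD4 had 1.21 FPKM (bounds 1.01 to 1.401), and in EV cells 0. The PRSS23 locus, from 86502101 to 86663945 on chromosome 11, covers most of the FZD4 span of 86656717 to 86666440 in both libraries, with 40.98 FPKM in EV and 32.28 in PRSS35. Both loci were assembled from the reads in both libraries. Both also hold, in the EV library, a short unnamed locus inside their span that the PRSS35 library does not list, of 647 bases in RNF43 and of 835 bases, with 1.94 FPKM, in FZD4. Over all 26228 names in both libraries, of which 11118 were expressed, 130 had 0 in EV with 1 FPKM or more in PRSS35, and 144 the other way round.

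Paralogs of the pathway were expressed unequally in these cells. GSK3A had 70.0 times the FPKM of GSK3B in EV and 54.8 times in PRSS35, and LRP5 had 113.7 and 132.0 times that of LRP6. Transcripts of GSK3A (52.0% GC) and LRP5 (62.9%) are richer in GC than those of GSK3B (42.2%) and LRP6 (40.9%). Over 9618 expressed names, Spearman's rho of level with GC content was 0.41 and with transcript length -0.42, a description across genes of the same libraries. Over the 10 genes described, rho of level with GC content was 0.13.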
